A study of Mus musculus with 7 samples.

Results

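The JAK kinases and STAT factors carry cytokine signals from the cell surface to the nucleus. They were examined here in neutrophils sorted from mouse livers 24 h after acetaminophen had caused liver injury (AILI), with and without the Ly6C-high monocytes that enter the injured liver. The members are the rows of the deposited RPKM table for the factors Stat2, Stat3, Stat5a, Stat5b and Stat6 and the kinases Jak1, Jak2, Jak3 and Tyk2, which are 9 of 16047 genes. Other genes of these families are not described here. RPKM is a gene's read number divided by its transcript length in kilobases and scaled by the mapped reads of the library.

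The mice were male C57BL/6 of 8 to 12 weeks that received 300 mg/kg of acetaminophen after an overnight fast. From 12 h before acetaminophen and every 24 h, they were injected with PBS (4 livers) or with 400 µL of medium conditioned with MC-21 at 29 µg/mL (3 livers). MC-21 is an antibody to CCR2, the chemokine receptor with which Ly6C-high monocytes leave the bone marrow, so the contrast addresses what neutrophils express when these monocytes are missing. Control medium without antibody was not part of the contrast, and every mouse received acetaminophen. From each liver 50000 cells were sorted by the gate CD11b+ Ly6C-low CX3CR1-GFP- Ly6G+, and each library is 1 liver, named by its liver number (PBS replicates 5 to 8 and MC-21 replicates 2 to 4). The study used wild-type mice and Cx3cr1-gfp/+ reporter mice. The labels name a CX3CR1-GFP gate but give no reporter genotype for single mice.

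The neutrophil markers Ly6g, S100a8, S100a9, Csf3r and Cxcr2 were present in every library, with a mean in PBS neutrophils of 15925 RPKM for S100a9 and 301 RPKM for Csf3r, and of 15 such markers 0 passed an adjusted p under 0.05 in limma's fit of MC-21 against PBS (4 higher and 1 lower at an unadjusted p under 0.05, median log2 difference 0.36). In a transcript of 1 kb, 1 RPKM stood for between 1.59 reads (MC-21 replicate 3) and 3.96 reads (PBS replicate 8). The median difference over the 9594 genes tested was -0.15 in log2(RPKM + 1), so a member at 0 lay above the bulk of the genes. RPKM was compared in bulk libraries, in which a smaller number of cells of a type and less RNA per cell cannot be told apart. Transcripts of other liver cells were also read in these libraries. The summed RPKM of 10 endothelial markers was between 1651 and 3372 in PBS and between 1696 and 3130 in MC-21 neutrophils, that of 10 hepatocyte markers between 1105 and 1477 and between 1206 and 1319. Most of the hepatocyte sum was Hp, with means of 762 RPKM in PBS and 819.7 RPKM in MC-21 neutrophils. The defining hepatocyte markers Alb, Apoa1 and Ttr had means of 47.1, 81.0 and 55.2 RPKM in PBS and 37.9, 68.6 and 42.6 RPKM in MC-21. Of 14 monocyte and macrophage markers tested, 2 passed as lower (Ccr2 and Fcgr1) and 0 as higher. The defining markers of this list besides Ccr2 did not pass. Csf1r had a log2 difference of -0.58 (adjusted p = 0.307 from limma) and Ly6c2 one of -0.25 (adjusted p = 0.577). Clec4f was at -0.28 (adjusted p = 0.794) and Adgre1 at 0.02 (adjusted p = 0.988). Ccr2, with means of 2.42 RPKM in PBS and 0.197 RPKM in MC-21, passed the filter of a mean of 1 RPKM through PBS alone. So did Cx3cr1, with means of 2.10 RPKM in PBS and 0.628 RPKM in MC-21. Of these 14 monocyte and macrophage markers, 8 were lower and 1 higher at an unadjusted p under 0.05 in limma's fit. That threshold was reached by 14.7% of all genes tested. The median log2 difference of the 14 markers was -0.62. The summed RPKM of the 16 such markers in the table was higher in MC-21 neutrophils, with 709.9 to 1214 in PBS and 1352 to 1655 in MC-21 libraries. Most of this sum was Cd14, a co-receptor for endotoxin that neutrophils also express, with 611 ± 172 RPKM (SD, n = 4) and 1282 ± 188 RPKM (SD, n = 3) and no overlap (log2 difference 1.11, adjusted p = 0.0739 from limma). Without Cd14, an alternative added after the data were seen, the other 15 summed to between 319 and 421 RPKM in PBS and between 225 and 281 RPKM in MC-21 libraries, which is the opposite direction. The part of these cells in the values of the JAK and STAT genes was not tested.

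In this pathway a cytokine joins its receptor chains, the JAK kinases bound to their tails phosphorylate each other and the receptor, and STAT factors dock there, are phosphorylated, pair and enter the nucleus. Jak1, Jak2 and Tyk2 serve many receptors, whereas Jak3 works with the common gamma chain Il2rg. In neutrophils, Stat3 is best known downstream of the G-CSF receptor, Stat5a and Stat5b downstream of GM-CSF, Stat6 downstream of IL-4 and IL-13, and Stat2 in the response to type I interferon. Activity in this pathway is set by phosphorylation, which RNA does not show.

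Among the kinases, Jak2 was the member whose level differed most between the groups, and Tyk2 differed in the other direction. Jak2 held 1.88 times the RPKM in MC-21 neutrophils that it held in PBS neutrophils, Tyk2 held less, and Jak1, the most abundant member by the deposited RPKM, had nearly equal means. The 5 STAT factors overlapped between the groups. No member passed an adjusted p under 0.05 in limma's fit over all genes tested (0 of 9 members, against 0.625% of all genes tested), and 2 of 9 had an unadjusted p under 0.05, against 14.7% of all genes.

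**Figure D1:**
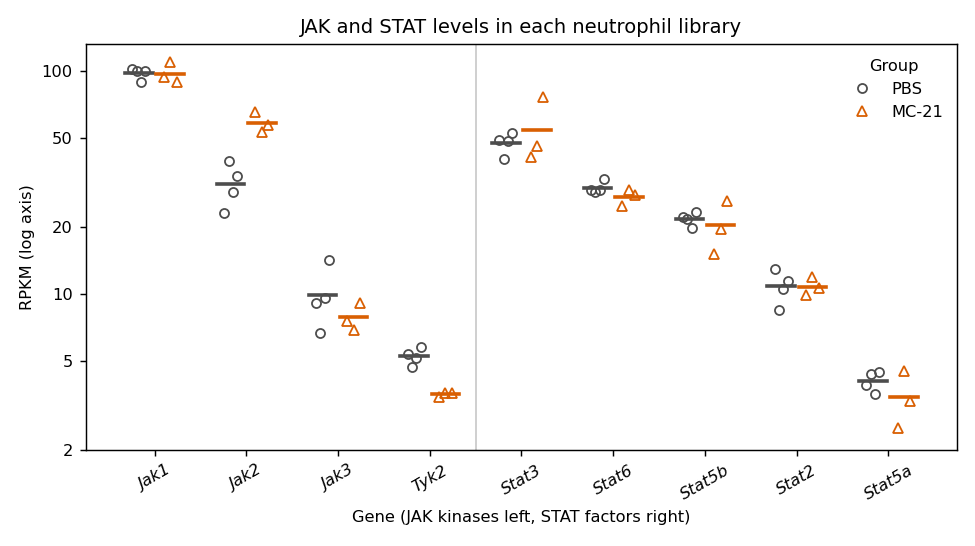
RPKM (log axis) of the 4 JAK kinases and 5 STAT factors, with 1 symbol per library (circles for 4 PBS, triangles for 3 MC-21) and a bar at the group mean. Jak2 lies between 23.0 and 39.5 RPKM in the PBS libraries and between 53.1 and 65.3 RPKM in the MC-21 libraries, Tyk2 is lower in every MC-21 library, and the other 7 genes overlap.

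Jak2, the kinase of receptors for GM-CSF, erythropoietin, growth hormone and interferon gamma, lies on chromosome 19 from 29326318 to 29387570 (mm9, plus strand). PBS replicates 5 to 8 held 23.0, 39.5, 28.6 and 33.6 RPKM of Jak2, and MC-21 replicates 2 to 4 held 65.3, 53.1 and 56.9 RPKM. All MC-21 libraries were above all PBS libraries, and replicate 6 was the highest of the PBS libraries. The means were 31.2 ± 7.03 RPKM (SD, n = 4) for PBS and 58.4 ± 6.28 RPKM (SD, n = 3) for MC-21. The log2 difference was 0.91 (standard error 0.19, 95% interval 0.47 to 1.34, adjusted p = 0.0779 from limma), a value that 139 of the 9594 genes tested exceeded. Groups that did not overlap, with MC-21 higher, were found in 1 of 9 members and in 3.1% of all genes tested. The adjusted p was 0.0410 after centring every library at its median log2 value and 0.0447 without PBS replicate 6, and between 0.0636 and 0.220 under the other alternatives. Between 320 and 1174 reads stood behind the Jak2 values, taking its longest coding transcript of 5030 bases, so that counting error was 5.59% at most.

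Tyk2, a kinase of receptors for type I interferon, IL-10 and IL-12, lies on chromosome 9 from 20908521 to 20931790 (mm9, minus strand). Its level was 5.42, 4.74, 5.17 and 5.80 RPKM in PBS replicates 5 to 8, and 3.45, 3.61 and 3.62 RPKM in MC-21 replicates 2 to 4. Every MC-21 library was below every PBS library, and the MC-21 values lay within a narrow range. The means were 5.28 ± 0.443 RPKM (SD, n = 4) and 3.56 ± 0.0961 RPKM (SD, n = 3), with a log2 difference of -0.46 (standard error 0.17, 95% interval -0.84 to -0.09, adjusted p = 0.264 from limma). Groups without overlap and with MC-21 lower made up 1 of 9 members and 10.2% of all genes tested, so the Tyk2 pattern was a common one. With each library centred on its median the log2 difference was -0.30 (adjusted p = 0.563). The 1 annotated transcript of Tyk2 has 4611 bases, and its values rest on 26 to 106 reads, with a counting error of up to 19.4%. That error is larger than the SD among the MC-21 libraries.

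The start regions of both genes are shown because Jak2 and Tyk2 are the members whose groups did not overlap. The sequences are from RefSeq (GRCm38.p6), each from 250 bases before to 50 bases after the start, 5′ to 3′ on the gene's strand, and capitals mark GGGCGG (the GC box) and CCAAT (the CCAAT box) on either strand, which do not overlap here. Jak2 is at chr19:29251553-29251852 and Tyk2 at chr9:21131226-21131525.
Jak2: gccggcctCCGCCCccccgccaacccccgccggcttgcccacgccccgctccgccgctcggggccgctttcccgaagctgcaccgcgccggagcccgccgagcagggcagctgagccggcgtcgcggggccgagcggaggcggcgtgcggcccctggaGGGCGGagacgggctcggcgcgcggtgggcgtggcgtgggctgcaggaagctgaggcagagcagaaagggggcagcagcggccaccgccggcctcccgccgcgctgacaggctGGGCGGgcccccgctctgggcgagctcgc
Tyk2: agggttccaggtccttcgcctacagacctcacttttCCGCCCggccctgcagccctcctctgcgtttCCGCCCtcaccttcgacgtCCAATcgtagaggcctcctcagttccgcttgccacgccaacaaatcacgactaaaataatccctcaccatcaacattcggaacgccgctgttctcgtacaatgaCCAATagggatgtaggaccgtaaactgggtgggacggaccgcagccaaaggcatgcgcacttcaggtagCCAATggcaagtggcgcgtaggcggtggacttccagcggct
The Jak2 region had 81.0% G and C, with 3 GC boxes and 0 CCAAT boxes, and the Tyk2 region had 58.0% G and C, with 2 GC boxes and 3 CCAAT boxes. The median over 32851 such regions was 52.7% G and C. GGGCGG was in 35.7% of all regions and CCAAT in 37.4%. The STAT motif TTCNNNGAA, searched on both strands, was in 0 of the 11 regions of the 9 members and in 8.3% of all regions.

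Jak1, which takes part in signalling from interferon, gp130 and gamma chain receptors, lies on chromosome 4 from 100824972 to 100937887 (mm9, minus strand). It held between 88.5 and 102 RPKM in PBS libraries, and 93.7, 109 and 88.5 RPKM in MC-21 replicates 2 to 4. The libraries of the groups were interleaved. With 97.4 ± 5.99 RPKM (SD, n = 4) and 97.1 ± 10.8 RPKM (SD, n = 3), the log2 difference was -0.01 (95% interval -0.31 to 0.29, adjusted p = 0.984 from limma), and its sign depended on the scaling. Jak1 stood at place 725 of the 9594 genes by mean RPKM in PBS neutrophils.

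Jak3, which is used mostly in lymphoid cells, lies on chromosome 8 from 74200195 to 74214474 (mm9, plus strand). Its values were 9.12, 6.69, 9.57 and 14.2 RPKM in PBS replicates 5 to 8 and 7.61, 6.92 and 9.15 RPKM in MC-21 replicates 2 to 4. The groups overlapped, and PBS replicate 8 was the highest library. The log2 difference was -0.26 (95% interval -0.79 to 0.27, adjusted p = 0.659 from limma). Exons of Jak3 overlap those of the neighbouring gene Insl3 over 404 bases on the same strand, and Insl3, a hormone gene of the testis, was listed at 77.7 to 218 RPKM. The overlap does not reach the last 1000 bases of the longest coding transcript of Jak3, of whose 50-base words 0 occur in coding transcripts of other genes, but it is the last exon of other annotated coding transcripts of Jak3, where 3′ libraries read, so the split of reads between the genes is uncertain. The markers of T and NK cells summed to between 13.8 and 22.2 RPKM in PBS and between 9.14 and 25.4 RPKM in MC-21 neutrophils over 14 genes. Their defining markers Cd3e, Cd3g and Ncr1 had means of 1.46 RPKM or less in both groups, and Nkg7 had 4.90 and 4.73 RPKM. The markers of B cells, over 5 genes, summed to between 11.4 and 30.7 RPKM and between 6.39 and 9.88 RPKM. Of 3 eosinophil markers in the table, the sums lay between 12.9 and 20.8 RPKM and between 9.33 and 16.4 RPKM.

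Shares within the family do not depend on the scaling between libraries, since the 4 kinases of a library are set against their own sum. Jak2 made up 16.5, 26.2, 21.7 and 22.0% of the summed JAK RPKM in PBS replicates 5 to 8, and 38.4, 30.7 and 36.0% in MC-21 replicates 2 to 4. Jak1 made up between 65.0 and 73.0% in PBS and between 55.1 and 63.2% in MC-21 neutrophils, and Tyk2 between 3.14 and 3.92% and between 2.03 and 2.29%. The groups did not overlap in these shares, which depend on each other, and no test was run on them. The ratio of Jak2 to Tyk2 was between 4.25 and 8.33 in PBS and between 14.7 and 19.0 in MC-21 libraries. For Jak3 the ranges of 4.43 to 9.26% and 4.01 to 5.79% overlapped. The split of reads between Jak3 and Insl3 is uncertain, and Jak3 enters the sum, so the shares of all 4 kinases carry that uncertainty. The ratio of Jak2 to Tyk2 does not involve Jak3. The libraries were made from 3′ ends, so dividing by transcript length can understate long genes, and levels of different genes are compared only within these limits.

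**Figure D2:**
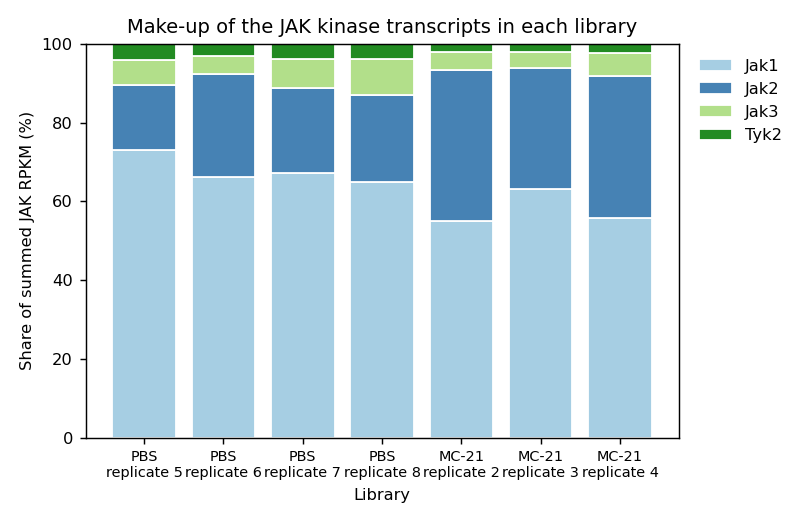
Share (%) of each JAK kinase in the summed RPKM of Jak1, Jak2, Jak3 and Tyk2, with 1 bar for each of the 4 PBS and 3 MC-21 libraries. The Jak2 share is between 16.5 and 26.2% in the PBS bars and between 30.7 and 38.4% in the MC-21 bars.

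Among the STAT factors, none separated the groups. Stat3, the factor of gp130 and G-CSF receptors, lies on chromosome 11 from 100746412 to 100800854 (mm9, minus strand). It held 48.9, 40.2, 48.5 and 52.5 RPKM in PBS replicates 5 to 8 and 41.1, 45.9 and 76.1 RPKM in MC-21 replicates 2 to 4. MC-21 replicate 4 stood above all other libraries, and the other two MC-21 libraries lay inside the PBS range. The means were 47.5 ± 5.21 RPKM (SD, n = 4) and 54.4 ± 19.0 RPKM (SD, n = 3). The log2 difference of 0.14 (95% interval -0.34 to 0.63, adjusted p = 0.794 from limma) was -0.12 without MC-21 replicate 4.

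Stat5a and Stat5b, paralogous factors of GM-CSF and other cytokines, lie next to Stat3 on chromosome 11. Stat5b runs from 100642045 to 100712038 on the minus strand and Stat5a from 100720665 to 100746483 on the plus strand (mm9), with a gap of 8.63 kb between them. Stat5b held 22.1, 21.7, 19.8 and 23.4 RPKM in PBS replicates 5 to 8 and 15.1, 19.6 and 26.2 RPKM in MC-21 replicates 2 to 4. The MC-21 libraries lay on both sides of the PBS libraries, with MC-21 replicate 4 again the highest. The log2 difference of Stat5b was -0.12 (95% interval -0.56 to 0.31, adjusted p = 0.804 from limma).

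Stat5a had the lowest level of the 9 members in PBS neutrophils, with 3.91, 4.40, 3.58 and 4.48 RPKM in PBS replicates 5 to 8 and 2.52, 4.52 and 3.33 RPKM in MC-21 replicates 2 to 4. MC-21 replicate 3, the shallowest library, held the highest value and the other two the lowest. Its log2 difference was -0.21 (95% interval -0.68 to 0.25, adjusted p = 0.677 from limma), on 28 to 69 reads with a counting error of up to 18.9%. Stat5b held between 4.93 and 5.65 times the RPKM of Stat5a in PBS and between 4.34 and 7.88 times in MC-21 libraries. Of the 50-base words of the Stat5a coding transcripts, 15.2% occur in transcripts of other genes, mainly of Stat5b, but only 2.42% of those in its last 1000 bases do, where 3′ libraries read. The 3′ ends of Stat5a and Stat3 overlap by 72 bases on opposite strands, and since use of the strand in counting is not given in the sources used here, reads in that stretch could fall to either gene.

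Stat6, the factor of IL-4 and IL-13, lies on chromosome 10 from 127080042 to 127098013 (mm9, plus strand). It held 29.3, 28.6, 29.1 and 32.8 RPKM in PBS replicates 5 to 8 and 24.7, 29.2 and 27.8 RPKM in MC-21 replicates 2 to 4. The groups overlapped within a narrow span. The log2 difference was -0.13 (95% interval -0.45 to 0.18, adjusted p = 0.702 from limma), and the residual SD of Stat6 was smaller than that of all but 2.51% of the genes tested.

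Stat2, which joins Irf9 in the type I interferon complex ISGF3, lies on chromosome 10 from 127707629 to 127729905 (mm9, plus strand), 610 kb from Stat6. Its 12.9, 8.47, 10.5 and 11.5 RPKM in PBS replicates 5 to 8 enclosed the 9.94, 11.9 and 10.6 RPKM of MC-21 replicates 2 to 4. The log2 difference was 0.01 (95% interval -0.40 to 0.41, adjusted p = 0.989 from limma).

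The plot of differences with their intervals sets the members side by side. Of the 9 members, 6 had a negative and 3 a positive difference, and 69.4% of all genes tested were negative. The median was -0.12 over the members, -0.12 over the STAT factors and -0.13 over the JAK kinases. For the 7 members whose intervals span 0, a log2 difference of 0.91 in either direction lies outside the interval.

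**Figure D3:**
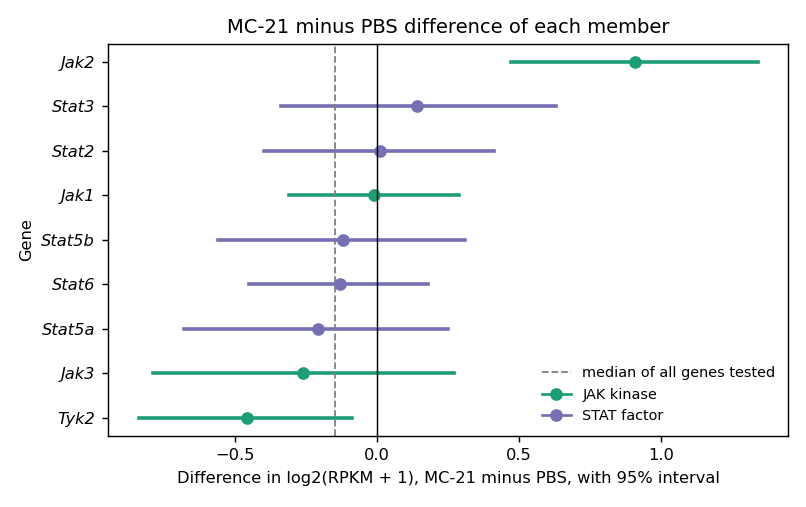
Difference in log2(RPKM + 1), MC-21 minus PBS, of each member with its 95% interval from limma (green for JAK kinases, purple for STAT factors), with a dashed line at the median of all genes tested (-0.15). The Jak2 interval of 0.47 to 1.34 lies above 0 and the Tyk2 interval of -0.84 to -0.09 below it.

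In PBS neutrophils the order of the mean levels was Jak1, Stat3, Jak2, Stat6, Stat5b, Stat2, Jak3, Tyk2 and Stat5a. The neighbours Jak2 and Stat6, and Stat2 and Jak3, overlapped between their libraries, and the other neighbours did not. In MC-21 neutrophils Jak2 stood second, ahead of Stat3, which it overlapped, and above Stat6 in 3 of 3 libraries. Stat6 and Stat5b, and Tyk2 and Stat5a, also overlapped there. Stat3 made up between 38.9 and 43.5% of the summed RPKM of the 5 STAT factors in PBS and between 41.3 and 52.8% in MC-21 libraries, and the sum itself was 114 ± 9.04 RPKM (SD, n = 4) and 116 ± 25.8 RPKM (SD, n = 3).

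Of the receptor chains that use these kinases, 24 of the 29 in the table were tested, and 0 passed an adjusted p under 0.05 in limma's fit. An unadjusted p under 0.05 was reached by 3 with MC-21 higher and 2 with MC-21 lower, and the median log2 difference was near 0. Ifngr1, the ligand-binding chain of the interferon gamma receptor, which signals through Jak1 and Jak2, held 82.6, 94.5, 81.4 and 87.2 RPKM in PBS replicates 5 to 8 and 129, 126 and 166 RPKM in MC-21 replicates 2 to 4. These groups did not overlap (log2 difference 0.68, standard error 0.14, adjusted p = 0.0760 from limma), whereas its partner Ifngr2, named here after its values were seen, had a log2 difference of -0.17. Il2rg, the partner of Jak3, held 58.1, 75.3, 75.1 and 78.0 RPKM in PBS and 54.4, 37.8 and 27.7 RPKM in MC-21 libraries, also without overlap (log2 difference -0.87, adjusted p = 0.137).

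Il21r, which pairs with Il2rg, had the largest absolute difference of the receptors (log2 difference -1.11, adjusted p = 0.182 from limma). With means of 2.18 RPKM in PBS and 0.445 RPKM in MC-21 neutrophils, Il21r passed the filter through the PBS libraries alone. Csf3r, the receptor for G-CSF, had 301 ± 27.6 RPKM (SD, n = 4) and 298 ± 5.60 RPKM (SD, n = 3). Il6st, the shared gp130 chain, had a log2 difference of 0.61 (adjusted p = 0.274), Il4ra one of 0.28 (adjusted p = 0.511) and Ifnar1 one of -0.21 (adjusted p = 0.651). Csf2rb2 had 81.8 RPKM in MC-21 replicate 2 against 5.32 to 28.9 RPKM in all other libraries, and is a close copy of the GM-CSF receptor chain Csf2rb, so that its reads are uncertain.

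Ligands of the pathway mostly lay under the filter of a mean of 1 RPKM. Of 19 in the table, 5 passed the filter, 0 had an adjusted p under 0.05 in limma's fit, 1 (higher) had an unadjusted p under 0.05, and the median log2 difference of the 5 was 0.18. Il4 was listed at 0, 1.42, 0 and 0.599 RPKM in PBS replicates 5 to 8 and at 2.66, 2.98 and 2.13 RPKM in MC-21 replicates 2 to 4 (adjusted p = 0.120 from limma). It is the ligand counted as higher, with means of 0.506 RPKM in PBS and 2.59 RPKM in MC-21 neutrophils. Il4 thus passed the filter through the MC-21 libraries alone. Il15 and Il23a had log2 differences of -0.65 and 0.57, with adjusted p-values of 0.612 and 0.424.

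Of the 19 feedback inhibitors and phosphatases, 17 were tested, and limma gave 0 an adjusted p under 0.05 and 3 higher and 1 lower an unadjusted p under 0.05, with a median log2 difference of 0.07. Cish, which is induced by Stat5 and dampens it, held 10.3, 19.7, 8.73 and 13.2 RPKM in PBS replicates 5 to 8 and 46.1, 25.4 and 33.0 RPKM in MC-21 replicates 2 to 4. The groups did not overlap (log2 difference 1.38, standard error 0.29, adjusted p = 0.0739 from limma). Socs2, which acts on growth hormone and Stat5 signalling, held 14.3, 99.6, 26.2 and 20.2 RPKM in PBS replicates 5 to 8 and 125 and 116 RPKM in MC-21 replicates 2 and 3, while MC-21 replicate 4 lay just above PBS replicate 6 (log2 difference 1.89, adjusted p = 0.168). Socs1, which binds JAK kinases, held 8.91, 29.8, 8.99 and 10.2 RPKM in PBS and 46.8, 35.7 and 27.7 RPKM in MC-21 libraries, so that the groups overlapped (log2 difference 1.44, adjusted p = 0.155). In Cish, Socs1 and Socs2, as for Jak2, replicate 6 was the highest PBS library. Socs3, the inhibitor of gp130 and G-CSF signalling, was abundant in both groups (342 ± 40.4 RPKM, SD, n = 4, and 423 ± 135 RPKM, SD, n = 3), with a log2 difference of 0.27 (adjusted p = 0.577).

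Among adaptors and partners, 13 of 16 were tested, limma gave 0 an adjusted p under 0.05 and 1 in each direction an unadjusted p under 0.05, and the median was -0.06. Gab2, a docking protein of cytokine receptors, held between 5.30 and 6.76 RPKM in PBS and between 8.89 and 10.4 RPKM in MC-21 libraries (log2 difference 0.60, adjusted p = 0.165 from limma). Shc1 and Stap2 had log2 differences of -0.40 and -0.39, with adjusted p-values of 0.318 and 0.372.

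Genes known to be driven by each factor were counted in the same way, and 12 to 20 genes make up each of these overlapping lists. Of 15 Stat3 targets tested, 0 passed in either direction (3 higher at an unadjusted p under 0.05) and the median log2 difference was -0.04, with the largest values for Il1rn (1.10, adjusted p = 0.144 from limma), Pim1 (0.49, adjusted p = 0.407) and Cebpd (0.40, adjusted p = 0.190). Of 10 Stat5 targets tested, 0 passed in limma's fit (3 higher and 1 lower at an unadjusted p under 0.05) and the median was 0.22, with Socs2, Socs1 and Cish at the top. Of 13 Stat6 targets tested, 1 passed as higher and 0 as lower in limma's fit, 4 were higher and 1 (Klf4) lower at an unadjusted p under 0.05, and the median was 0.28, with 7 positive and 6 negative differences. The lowest values were those of Ccl24 (-1.13, adjusted p = 0.507), Arg1 (-0.86, adjusted p = 0.619) and Ccl17 (-0.77, adjusted p = 0.380), named here after their values were seen, as was Klf4 (-0.67, adjusted p = 0.224).

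The gene that passed was Chil3, which encodes a chitinase-like protein, at 85.9 to 230.1 RPKM in PBS and 530.4 to 1084 RPKM in MC-21 libraries (log2 difference 2.47, adjusted p = 0.0172 from limma). Chil3 is also a known product of neutrophils and their precursors. Of 17 ISGF3 targets tested, 0 passed in limma's fit (1 higher at an unadjusted p under 0.05), 13 had a negative difference and the median was -0.16, close to the -0.15 of all genes. Irf7, an interferon-induced transcription factor, stood apart from that list with 67.7, 142, 94.0 and 92.7 RPKM in PBS replicates 5 to 8 and 348, 236 and 184 RPKM in MC-21 replicates 2 to 4 (log2 difference 1.36, adjusted p = 0.0697). Mx2 and Ifit2 had log2 differences of -0.69 and -0.51, with adjusted p-values of 0.348 and 0.568. Mx2, with means of 1.69 RPKM in PBS and 0.563 RPKM in MC-21 neutrophils, passed the filter through the PBS libraries alone.

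**Figure D4:**
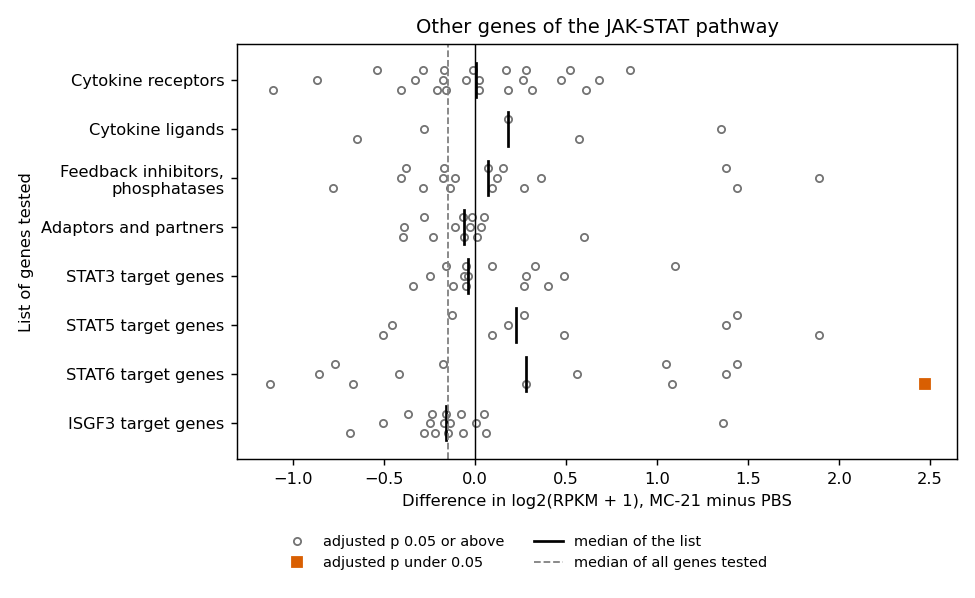
Difference in log2(RPKM + 1), MC-21 minus PBS, of each tested gene in 8 lists of other JAK-STAT genes, with a black line at the median of each list and a dashed line at that of all genes tested (-0.15). Chil3 (2.47) is the 1 gene with an adjusted p under 0.05, and the list medians lie between -0.16 and 0.28.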

How the data were processed

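RNA-seq libraries were made from 3′ ends of RNA of 7 sorted samples. The authors aligned NextSeq reads with HISAT 0.1.5 against mm9, used SAMtools for conversion, and deposited RPKM values per gene from Partek Genomics Suite 6.6. The annotation, and the handling of strand, multi-mapping reads and barcodes, are not given in the sources used here. Without counts, no count model was run. Depth was read from values under 1 RPKM in genes with 1 transcript, of which 75.7% lay within 0.1 of a whole read (20% if evenly spread). Each depth was set from the most frequent of these same values, which raises that share, so it is not an independent check. These depths cover counting error only.

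Where the mean over libraries reached 1 RPKM, log2(RPKM + 1) was fitted with limma 3.58.1 (eBayes with a trend, R 4.3.3), two-sided, with Benjamini-Hochberg adjustment over all 9594 genes, in place of the study's per-gene test. All 9 members passed the filter. A fold change on this scale understates low genes. The p-values measure the spread between livers. The members and lists were chosen with earlier results of these data known.

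Named were all members, list genes with an adjusted p under 0.05 or otherwise the 3 largest absolute differences, pathway genes best known in neutrophils, and defining markers. Reads per gene assume the longest coding transcript. Coordinates are from the mm9 annotation GENCODE M1, and promoters from RefSeq. Il5ra, Il12rb2, Prlr, Il2, Il21, Ifnb1, Il3, Il5 and Epo are not in the table used. Alternatives were a pseudocount of 0.1, no filter, a filter at a mean of 5 RPKM, quantile scaling, median centring, no trend, and each library left out. Tables and plots used Python 3.11.15, pandas 2.3.3, scipy 1.17.1 and matplotlib 3.10.9.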

Additional observations from a re-analysis of the deposited data

Results flagged for a closer look

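Stat6 in PBS replicate 8 stood apart from the other 3 PBS libraries, with 32.8 RPKM against 28.6 to 29.3 RPKM, and the gap made up 0.835 of the range of the PBS group, above Dixon's limit for 4 samples. Among the 9 members 1 was flagged in this way, and chance flags about 1 in 20 groups.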

How the results depend on the processing

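No paired analysis was possible because the groups share no replicate numbers. The number of members with an adjusted p under 0.05 was 1 (Jak2) with each library centred on its median and between 0 and 1 with each library left out. The number whose groups did not overlap was 1 with a mean of at least 5 RPKM, where Tyk2 was not tested, and between 2 and 4 with each library left out, adding Stat5a and Stat6 without MC-21 replicate 3 and Stat5b without MC-21 replicate 4 (3 in all). Groups of fewer libraries separate more easily. The share of all genes without overlap was not counted under these settings, so the added members cannot be set against it. Over all genes, 6 rather than 60 were called without a filter on low values, and between 9 (without PBS replicate 8) and 102 (without PBS replicate 6) with each library left out. The causes were not tested. Members with small differences turned sign. Jak1 was at 0.0044 with quantile normalization and at 0.16 with median centring, where Stat5b was at 0.04 and Stat6 at 0.03. With each library left out, Jak1 ranged from -0.09 to 0.06, Stat2 from -0.10 to 0.09, Stat3 from -0.12 to 0.32 and Stat5b from -0.32 to 0.06. Jak2 and Jak3 kept their sign in 13 of 13 alternatives and Tyk2 in 12 of the 12 that tested it. The log2 difference of Jak2 was between 0.78 and 1.03, and that of Tyk2 between -0.50 and -0.42, with each library left out.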

Other observations

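PBS replicate 6 held the highest value of the PBS libraries for Jak2, Cish, Socs1, Socs2 and Irf7, genes picked out after their values were seen. This library was also the highest PBS library in 140 of the 297 genes (47.1%) that were higher in MC-21 neutrophils without overlap, and each of the other PBS libraries was so in 48 to 55 of them. Jak2 is among the genes with this order. How often replicate 6 was the highest PBS library over all genes tested was not counted, so the order cannot be called particular to these genes.

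Insl3 and Jak3, which overlap in their exons, were both highest in PBS replicate 8, at 218 and 14.2 RPKM. Stat6 (32.8 RPKM) and Tyk2 (5.80 RPKM), whose exons do not overlap those of Insl3, were also highest in that library. The lowest library was MC-21 replicate 2 for Insl3 (77.7 RPKM) and PBS replicate 6 for Jak3 (6.69 RPKM). Whether the 2 genes share reads was not tested.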
